A study of Mus musculus with 48 samples.

Results

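Ccl2, Ccl7, Ccl8 and Ccl12 encode 4 mouse chemokines that attract monocytes, and Ccr2 encodes the chemokine receptor through which monocytes respond to several of them. These 5 genes were chosen by name for those roles, and each was found by its symbol in both tables of counts. They are 5 of the 20300 genes counted in a mix of tumor cells and immune cells and 5 of the 14363 genes counted in CD11b+ cells.

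CC chemokines of this group are small secreted proteins that bind receptors coupled to G proteins. In the mouse, Ccl2, Ccl7 and Ccl12 are ligands of Ccr2, while Ccl8 is known chiefly as a ligand of Ccr8. Ccr2 carries Ly6c-high monocytes out of the bone marrow and into inflamed tissue, and in glioma it is known from blood-derived myeloid cells, whereas resident microglia hardly express it.

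Single-cell RNA sequencing was done on GL261 tumors, a glioma line of C57BL/6 origin, implanted into the brains of male C57BL/6 mice aged 6 weeks. The tumor cells carried either a negative control shRNA (shNC) or an shRNA against Selp, the gene of P-selectin (shSELP), so that the knockdown was in the implanted line while the host cells were of the same strain in both groups. In the mix, CD11b+ cells, other CD45+ cells and tumor cells isolated on day 16 after implantation were combined in equal amounts, with 2 shNC and 2 shSELP libraries; in the other experiment CD11b+ cells alone were isolated on day 21, with 1 library a group. Cells of 3 brains a group were pooled, and the labels do not say whether libraries of the same group were made from separate brains, so p-values measure the spread between libraries, which may be technical.

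The mix libraries held 2289, 2297, 2293 and 2293 cells with 22945972, 22626413, 17398121 and 25589350 unique molecular identifiers (UMIs, each counting 1 captured transcript) in shNC 1, shNC 2, shSELP 1 and shSELP 2. Values of the mix are given in that order throughout. The CD11b+ libraries held 2862 cells each, with 12628177 UMIs in shNC and 11445676 in shSELP. Cells were kept if 500 genes or more were detected and no more than 10% of UMIs were mitochondrial, which left 8726 in the mix and 5535 among CD11b+ cells. Cell barcodes shared between libraries numbered 5 within the mix, 3 within the CD11b+ experiment and 12 between the experiments.

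Each cell was assigned to the class with the largest share of its marker genes detected, with at least 3 detected, and the 5 genes were not among the markers. This gave 3042 macrophage-like, 518 microglia-like, 507 monocyte-like, 1826 T-like, 584 tumor-like, 477 endothelial-like and 124 mural-like cells in the mix. A lead of under 0.1 in the share of markers over the next class was held by 350 of the macrophage-like, 42 of the microglia-like, 145 of the monocyte-like and 159 of the tumor-like cells. The macrophage-like cells of the 4 libraries numbered 937, 745, 544 and 816, the microglia-like cells 61, 90, 265 and 102, and the endothelial-like cells 21, 32, 353 and 71. Egfr was at 0 in the tumor-like cells of all 4 libraries, and Ly6g, a neutrophil marker, was at 0 in the monocyte-like cells of all 4. All 10 macrophage markers were detected in the macrophage-like cells and all 10 microglia markers in the microglia-like cells of each library.

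The 4 ligand genes lie in 1 cluster on the plus strand of chromosome 11 in mm10, as annotated by GENCODE M21. Ccl2 spans 82035571 to 82037453, Ccl7 82045712 to 82047525, Ccl12 82101845 to 82103400 and Ccl8 82115185 to 82116799. The 4 genes cover 81.2 kb, with Ccl11 between Ccl7 and Ccl12, and 8259 bp separate Ccl2 from Ccl7. Ccr2 lies on the plus strand of chromosome 9 from 124101950 to 124113557. Gm17268, which overlaps Ccl2 on the minus strand, was not among the genes counted in the mix.

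Macrophage-like cells, 34.9% of the kept cells, held most of the ligand UMIs of the mix over the 4 libraries. Of the UMIs in all kept cells, they held 68.4% for Ccl2, 87.1% for Ccl7, 94.9% for Ccl8 and 68.5% for Ccl12. Since the cell fractions were combined in equal amounts, these shares describe the mix and not the tumors. For Ccr2 the UMIs were spread over more classes, with 45.5% in macrophage-like, 22.8% in T-like and 22.3% in monocyte-like cells. By library, the macrophage-like share of Ccl12 UMIs was 83.5%, 78.0%, 44.9% and 58.4% and the microglia-like share 9.23%, 17.3%, 47.7% and 33.4%, so that microglia-like cells held the larger share in shSELP 1. The microglia-like share was higher in both shSELP libraries, which also held more microglia-like cells, and their part in this share was not tested.

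**Figure D1:**
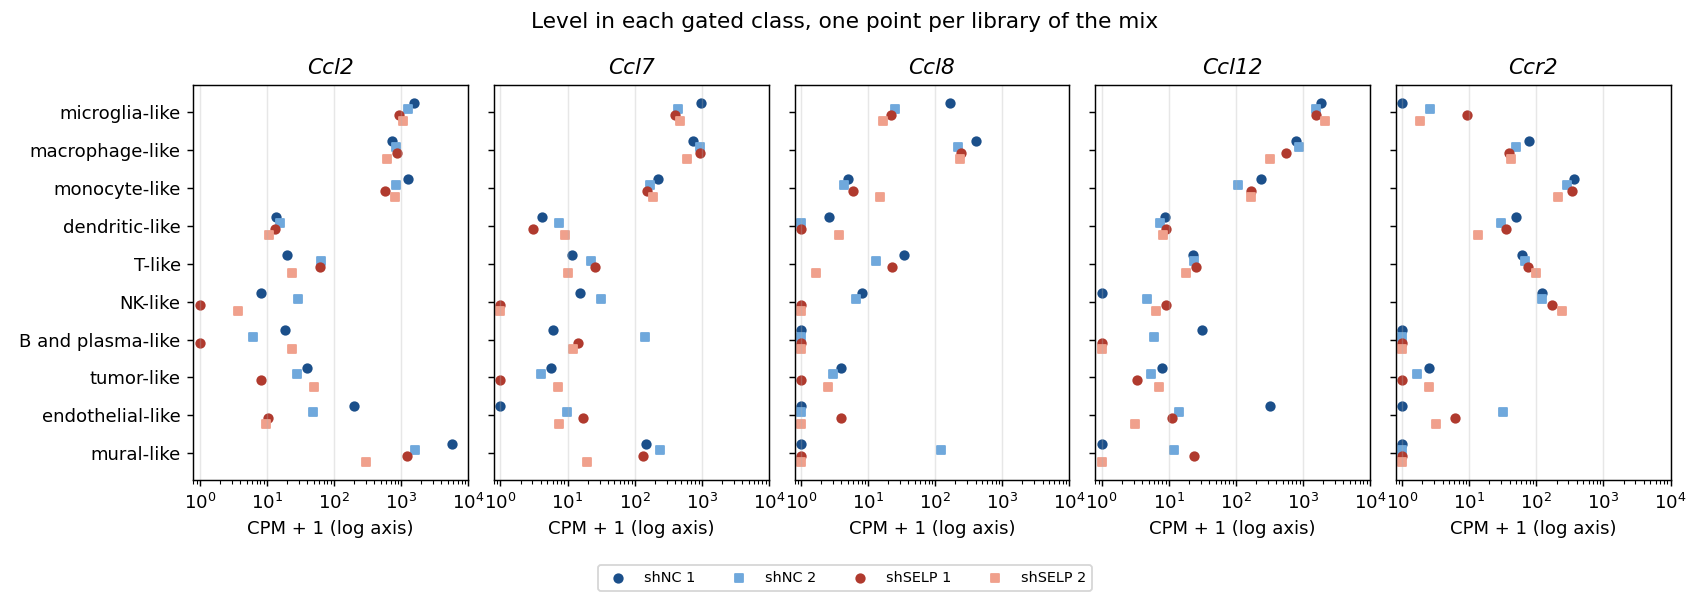
Counts per 1000000 UMIs (CPM, log axis) of the 5 genes in the gated classes of the mix, with 1 point per library. Ccl12 is highest in microglia-like cells, Ccl8 in macrophage-like cells and Ccr2 in monocyte-like cells.

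Ccl2, the best known attractant of Ccr2-bearing monocytes, was present in microglia-like, monocyte-like and macrophage-like cells. Its level in counts per 1000000 UMIs of the class (CPM) was 1207 ± 275 (mean ± SD, n = 4 libraries) in microglia-like, 882 ± 294 in monocyte-like and 769 ± 114 in macrophage-like cells. Libraries of neighbouring classes overlapped in this order. Lower means were found in oligodendrocyte-like cells at 452 ± 404, astrocyte-like cells at 382 ± 719.9, neutrophil-like cells at 216 ± 235, endothelial-like cells at 65.4 ± 88.8 and T-like cells at 41.5 ± 23.7 CPM. Tumor-like cells held 30.6 ± 17.9 CPM, and dendritic, B and plasma and NK-like cells between 9.6 and 12.3 CPM on average. These neighbours overlapped as well, though classes further apart did not always: the lowest oligodendrocyte-like library, at 56.1 CPM from 6 UMIs, lay above the highest tumor-like one, at 48.9 CPM. The 4 libraries held 10, 27, 21 and 22 oligodendrocyte-like, 4, 2, 9 and 9 astrocyte-like and 6, 5, 22 and 12 neutrophil-like cells, and 98.3% of the Ccl2 UMIs in the astrocyte-like cells of shSELP 2 came from 1 cell, so the places of these classes rest on few cells for each of the 5 genes.

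The highest mean of Ccl2, 2208 ± 2389.8 CPM, came from mural-like cells and rested on few cells. Their values were 5696, 1619.8, 1216 and 301 CPM from 5, 10, 80 and 29 cells. A single cell gave 87.6%, 64.8%, 70.0% and 36.4% of the Ccl2 UMIs of these cells. Fibroblast-like cells, 33 in all, held 448 Ccl2 UMIs in the 8 cells of shNC 1, 183 in the 23 cells of shSELP 1 and 0 in the 2 cells of shSELP 2, and shNC 2 had none of these cells. The same cells of shNC 1 and shSELP 1 held Ccl7 at 899 and 704 CPM and Ccl8 at 144 and 215 CPM, and they were left out of the orders of classes given here, which take classes found in all 4 libraries.

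Ccl7, a ligand of Ccr2 encoded next to Ccl2, was highest in macrophage-like cells at 811 ± 176 CPM, followed by microglia-like cells at 573 ± 268 CPM, and libraries of these classes overlapped. Monocyte-like cells at 183 ± 30.7 CPM lay below every microglia-like library. From there on each class overlapped with the next: mural-like 133 ± 88.9, neutrophil-like 102 ± 175, astrocyte-like 97.4 ± 195, B and plasma 42.6 ± 65.8, oligodendrocyte-like 40.5 ± 45.1, T-like 16.3 ± 7.63, NK-like 11.2 ± 14.5, endothelial-like 7.84 ± 6.66, dendritic 4.93 ± 2.82 and tumor-like cells 3.46 ± 2.63 CPM. The place of B and plasma cells rests on shNC 2, where all 55 UMIs came from 1 cell.

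Ccl8 was the ligand with the largest share of its UMIs in macrophage-like cells. It stood at 274 ± 87.2 CPM in macrophage-like cells, above every library of microglia-like cells at 56.5 ± 72.3 CPM. Within macrophage-like cells it was higher in those with 3 or more of the 10 microglia markers, at 669, 350, 456 and 353 CPM, than in those with at most 2, at 238, 135, 78.1 and 165 CPM, in each library. The former were also deeper, at medians of 15140.5, 20157.5, 15145.5 and 23435.5 UMIs against 10360, 10059, 9120 and 14597. The part of depth in this split was not tested. All further neighbours overlapped: mural-like 30.7 ± 61.4, T-like 17 ± 14.1, monocyte-like 6.60 ± 4.99, oligodendrocyte-like 4.49 ± 6.08, NK-like 3.21 ± 3.75, astrocyte-like 3.04 ± 6.09, tumor-like 1.63 ± 1.24, dendritic 1.07 ± 1.32 and endothelial-like cells 0.721 ± 1.44 CPM. No Ccl8 UMI was found in B and plasma or neutrophil-like cells, where 3 UMIs would be between 7.51 and 277 CPM in a library.

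Ccl12, a mouse ligand of Ccr2, had the opposite order in the first places. Microglia-like cells at 1774 ± 295 CPM lay above macrophage-like cells at 634 ± 245 CPM, and these above monocyte-like cells at 169.8 ± 52.3 CPM, with no overlap of libraries at either step. The remaining classes overlapped with their neighbours: endothelial-like 86.1 ± 155, neutrophil-like 39.7 ± 37.9, T-like 21.3 ± 3.03, B and plasma 8.79 ± 14.4, mural-like 8.49 ± 10.9, dendritic 7.41 ± 0.746, tumor-like 4.95 ± 2.00, oligodendrocyte-like 4.54 ± 7.11 and NK-like cells 4.35 ± 3.42 CPM. Astrocyte-like cells held 0 Ccl12 UMIs.

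The receptor Ccr2 followed another order. It was 298 ± 68.2 CPM in monocyte-like and 164 ± 57.9 CPM in NK-like cells, which overlapped, and then 74.7 ± 15.5 CPM in T-like cells, which lay below every NK-like library. Macrophage-like cells at 51.1 ± 18.2 CPM overlapped with T-like cells and with dendritic cells at 31.3 ± 15.0 CPM, and endothelial-like cells at 9.49 ± 14.2 CPM with the latter. Astrocyte-like, microglia-like and oligodendrocyte-like cells had means of 3.04 ± 6.09, 2.63 ± 3.71 and 2.41 ± 4.82 CPM, and tumor-like cells of 0.921 ± 0.729 CPM. Mural-like, B and plasma and neutrophil-like cells held 0 Ccr2 UMIs, which in mural-like cells allows up to 88.5, 33.5, 13.7 and 13.7 CPM in the 4 libraries.

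The share of cells with at least 1 UMI was compared after each cell was thinned to 2000 UMIs, with T-like cells as the class that should lack the ligands. In macrophage-like cells, Ccl2 was found in 41.4%, 48.5%, 47.0% and 36.3% of thinned cells and in 63.3%, 73.0%, 70.0% and 63.8% at full depth. In T-like cells the thinned share was 1.41% to 2.90% and the share at full depth 4.79% to 9.83%. Median depth was 11689, 12596, 11367 and 16656 UMIs in macrophage-like cells and 5747, 5775, 4990 and 7632 in T-like cells. Ccl2 in macrophage-like cells was thus well above the T-like background at equal depth.

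Ccl12 was found in 43.0%, 45.8%, 35.1% and 26.2% of thinned macrophage-like cells (67.2%, 70.6%, 61.0% and 55.1% at full depth) and in 75.9%, 67.9%, 71.2% and 70.4% of thinned microglia-like cells (85.2%, 86.7%, 85.7% and 91.2% at full depth, median depths 6796, 13394.5, 7779 and 10442). In T-like cells it was found in 1.48% to 3.68% of thinned cells and 4.81% to 7.80% at full depth. Both macrophage-like shares of shSELP libraries were below both of shNC, while the microglia-like shares overlapped between groups.

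Ccl7 was found in 27.8% to 38.3% of thinned macrophage-like cells and 0.844% to 2.21% of thinned T-like cells, against 43.9% to 53.7% and 2.83% to 4.26% at full depth. Ccl8 was found in 8.21% to 16.4% of thinned macrophage-like cells and 0% to 1.41% of thinned T-like cells, against 15.6% to 30.6% and 0.418% to 3.05% at full depth. In monocyte-like cells, Ccl8 was found in 0.617% to 2.52% of thinned cells, a share that overlapped with the T-like background. In tumor-like cells, Ccl7, Ccl8 and Ccl12 were each found in at most 1.82% of thinned cells of any library, and none exceeded the highest share in T-like cells. Ccl2 there was found in 1.56%, 4.49%, 3.64% and 15.8% of thinned cells at median depths of 15727.5, 16567, 13899 and 6081, so that shSELP 2 stood above the other libraries.

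For Ccr2, microglia-like cells served as the class that should lack it, with 0% to 1.56% of thinned cells and 0% to 3.02% at full depth. Monocyte-like cells showed Ccr2 in 33.6%, 34.6%, 37.9% and 17.2% of thinned cells (58.8%, 56.8%, 68.9% and 49.3% at full depth, median depths 5763, 6772.5, 6640.5 and 9188). Macrophage-like cells showed it in 14.7%, 11.6%, 7.10% and 9.23% of thinned cells and in 32.9%, 25.6%, 18.9% and 22.4% at full depth. All of these shares were above every microglia-like share at the same depth, and the Ccr2 share of shSELP 2 was the lowest among monocyte-like cells.

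**Figure D2:**
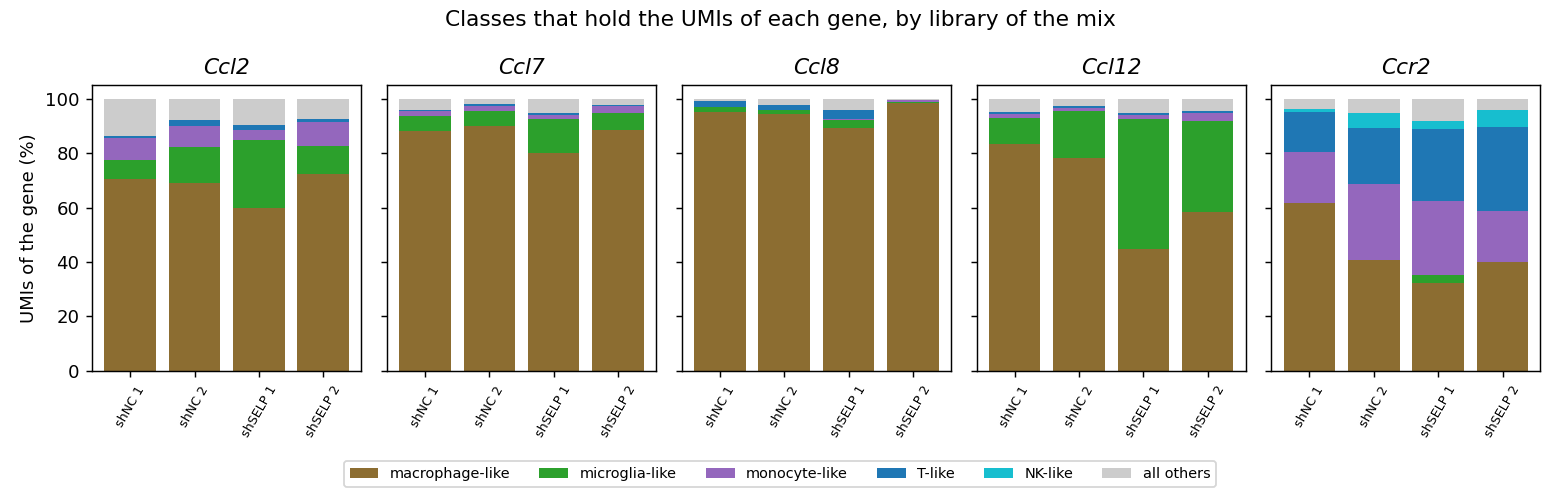
Percent of the UMIs of each gene held by each class, by library of the mix. Macrophage-like, microglia-like, monocyte-like, T-like and NK-like cells are shown apart, and all others together. Macrophage-like cells held 83.5%, 78.0%, 44.9% and 58.4% of the Ccl12 UMIs in shNC 1, shNC 2, shSELP 1 and shSELP 2.

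Within libraries, all 5 genes differed between microglia-like and macrophage-like cells by edgeR at an adjusted p under 0.05 and also by DESeq2, in a comparison where 41.2% of 10002 genes did so by edgeR and 27.5% of 12597 by DESeq2. Ccl12 was 1.44 ± 0.22 (SE) higher in microglia-like cells on the log2 scale, adjusted p = 0.000160 (edgeR), and higher in 4 of 4 libraries. Ccl2 was 0.52 ± 0.14 higher, adjusted p = 0.0104 by edgeR and in 4 of 4 libraries. In cells thinned to 2000 UMIs the Ccl2 difference was 0.22 with an adjusted p of 0.223, and without shNC 1 it was 0.37 with an adjusted p of 0.0835. With cells grouped by clustering in place of the gate, Ccl2 was -0.24, in the other direction, so its order between these classes depended on how cells were chosen.

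Ccl8, Ccl7 and Ccr2 were lower in microglia-like than in macrophage-like cells. Ccl8 differed by -2.94 ± 0.32, adjusted p = 7.52e-06 (edgeR), and was lower in 4 of 4 libraries. Against macrophage-like cells with at most 2 microglia markers, a choice made after the data were seen, it differed by -1.98 with an adjusted p of 0.000150 by edgeR. In that setting Ccl7 no longer passed. Ccr2 differed by -3.62 ± 0.37, adjusted p = 5.12e-06 by edgeR, and was also lower in 4 of 4 libraries. Ccl7 differed by -0.69 ± 0.22, adjusted p = 0.0206 by edgeR, and was lower in 3 of 4 libraries, since shNC 1 had 972 CPM in microglia-like and 732 in macrophage-like cells. Without shNC 2 or without shSELP 1 the Ccl7 difference had adjusted p-values of 0.103 and 0.108.

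Between monocyte-like and macrophage-like cells, 4 of the 5 genes passed by edgeR and 4 by DESeq2, where 33.3% of 9487 genes passed by edgeR and 22.6% of 11133 by DESeq2. Ccr2 was 2.57 ± 0.14 higher in monocyte-like cells, adjusted p = 1.07e-07 (edgeR), and higher in 4 of 4 libraries. Ccl7 at -2.10 ± 0.15, Ccl8 at -5.17 ± 0.25 and Ccl12 at -1.82 ± 0.23 were lower in 4 of 4 libraries, with edgeR adjusted p-values of 7.39e-07, 3.49e-08 and 7.23e-05. Ccl2 did not pass, at 0.18 ± 0.16 with an adjusted p of 0.419 by edgeR, and it was higher in monocyte-like cells of 2 of 4 libraries. Among other settings, it passed with at least 4 markers detected and turned direction with clusters in place of the gate. Of the 507 monocyte-like cells, 96 fell in a cluster led by dendritic-cell genes and 25 in a cluster led by immunoglobulin genes, and without them Ccl2 was 0.69 higher with an adjusted p of 0.00324, a choice made after the data were seen. Without shSELP 1 it was 0.41 higher with an adjusted p of 0.0248, and without shNC 1 it was -0.05.

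Among macrophage-like cells, Ccr2 and Ccl8 varied in opposite directions with the number of monocyte markers detected. In cells thinned to 2000 UMIs, Ccr2 was 58.1, 26.7, 15.8 and 14.2 CPM in those with 0 of the 8 markers and 286, 120.3, 163 and 84.2 CPM in those with 3 or more. Ccl8 was 455, 379.8, 357 and 531 CPM in the former and 55.6, 0, 81.4 and 54.5 CPM in the latter. Ccl7 and Ccl12 were also lower in the latter in each library, with Ccl7 at 637, 1029, 1204 and 710 CPM against 476, 424, 512 and 243 CPM, and Ccl12 at 854, 1011, 744 and 517 CPM against 476, 443, 186 and 158 CPM. Ccl2, at 630, 763, 916 and 712 CPM with 0 markers, was higher with 3 or more in the first 3 libraries, at 976, 823 and 965 CPM, and lower in shSELP 2, at 550 CPM. In CD11b+ cells Ccl2 went from 596 to 1462 CPM in shNC and from 452 to 995 CPM in shSELP. The cells between, with 1 or 2 markers, did not always lie between in level, as for Ccl8 in shSELP 1, which was 0 CPM with 2 markers. The cells with 3 or more markers were few, with 63, 79, 43 and 101 cells.

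Ccl2 and Ccl7 were often found in the same macrophage-like cells. In thinned cells, Ccl7 was found in 52.5%, 55.0%, 54.3% and 50.9% of those with a Ccl2 UMI and in 13.2%, 22.5%, 21.7% and 14.7% of those without. For Ccl12 the shares were 57.9%, 55.6%, 44.5% and 34.6% against 32.6%, 36.6%, 26.8% and 21.3%. For Ccl8 they lay closer together, at 18.9%, 11.5%, 10.2% and 10.2% against 14.7%, 9.21%, 6.88% and 7.04%. At least 1 of the 4 ligands was found in 68.2%, 72.5%, 70.4% and 57.9% of these cells, and all 4 in 3.64%, 2.65%, 1.34% and 1.28%. Cells of 1 library are not replicates, and these shares are a description.

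The comparison of shSELP with shNC asked whether knockdown of Selp in the tumor cells went with other levels of these genes in each class. By edgeR on UMIs summed per library, with Benjamini-Hochberg adjustment over all genes tested, 0 of the 5 genes passed in macrophage-like cells, where 0.0974% of 11299 genes did. At an unadjusted p under 0.05 there were 2, beside 14.3% of all genes tested, and DESeq2 called 0, beside 1.34% of 10695 genes. Both shSELP libraries were below both shNC libraries for 2 of the 5 genes, Ccl12 and Ccr2, as for 31.7% of all genes tested.

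Ccl12 in macrophage-like cells was 782, 871, 556 and 325 CPM. Both shSELP libraries were lower than both shNC libraries, and shSELP 2 was the lowest. The log2 difference was -0.85 ± 0.21 with an adjusted p of 0.162 by edgeR (unadjusted 0.00509), lower in 2 of 2 shSELP libraries, and so it did not pass the threshold. Without shSELP 1 the difference was -1.25 with an adjusted p of 0.00955, and the other libraries left out in turn gave adjusted p-values above 0.05. It also passed with no filter on low counts, at -0.86 with an adjusted p of 0.00288; across 13 alternative settings, leaving aside those chosen after the data were seen, it lay between -1.25 and -0.53, and 2 of them passed.

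Macrophage-like cells were also split by their number of microglia markers. Whether the Ccl12 difference was unlike between the sets was not tested. Cells with 3 or more of the 10 microglia markers made up 30.1%, 26.6%, 32.7% and 27.2% of macrophage-like cells and held 943, 1165, 852 and 497 CPM of Ccl12. Those with at most 2 held 681, 683, 333 and 226 CPM, and in each set the shSELP values were under both of shNC. In the cells with at most 2 markers, a choice made after the data were seen, the difference was -1.23 with an adjusted p of 0.0341 by edgeR. The 10 microglia markers summed to 397, 369, 436 and 259 CPM in all macrophage-like cells, all 10 were detected in each library, and Olfml3 was the most abundant. Their part in the Ccl12 difference was not tested.

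Clusters of the cells, formed without the 5 genes, divided the macrophages and microglia more finely. In a cluster led by Cd72 and Ms4a7, Ccl12 was 785, 963, 486 and 423 CPM, and in a cluster led by Ly6i and Inhba it was 460, 425, 256 and 185 CPM. In both, each shSELP library was below each shNC library, and these were not the only clusters with that order. In a cluster of microglia led by Siglech and P2ry12 it was 2152, 1611, 1789 and 2449 CPM, and in a cluster led by Cst7 and Timp2 it was 1195, 1232, 1088 and 1457 CPM. The groups overlapped in these, and the clusters named here were picked after their values were seen. How many of all genes had both shSELP libraries below both shNC libraries within a cluster was not counted.

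Clusters also differed between libraries in their number of cells. The cluster led by Cd72 and Ms4a7 held 349, 252, 141 and 125 cells. A cluster led by Pclaf and Tk1, where Ccl12 was 1257 CPM over all libraries, held 93, 41, 9 and 9 cells, and the one led by Ly6i and Inhba, which had the monocyte markers Ly6c2, Chil3 and Hp and no macrophage marker among its 10 leading genes, held 165, 204, 116 and 239. The part of these numbers in the Ccl12 difference of macrophage-like cells was not tested.

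**Figure D3:**
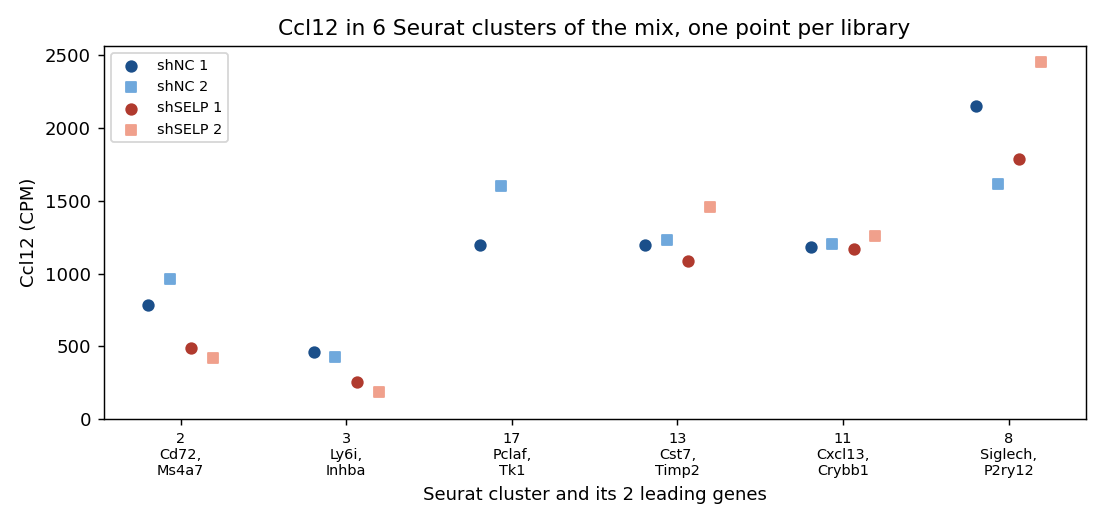
Ccl12 in CPM by cluster and library of the mix, for clusters picked after their values were seen. In the cluster led by Cd72 and Ms4a7 both shSELP libraries (486 and 423 CPM) lie below both shNC libraries (785 and 963 CPM).

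Ccl2 in macrophage-like cells was 741, 853, 862 and 619.6 CPM and Ccl7 was 732, 959.6, 953 and 600.5 CPM. The groups overlapped for both, with shSELP 2 lowest each time. Their log2 differences were -0.05 ± 0.15 and -0.06 ± 0.20, with edgeR adjusted p-values of 0.919 and 0.921 and 1 of 2 shSELP libraries below both shNC libraries. Without shSELP 2 the values turned to 0.15 and 0.21, without shNC 2 to 0.03 and 0.12, and in cells thinned to 2000 UMIs to 0.02 and 0.10.

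Ccl8 in macrophage-like cells was 404, 219, 240.5 and 234 CPM. shNC 1 stood above the others, and the groups overlapped. The difference of -0.34 ± 0.26 had an adjusted p of 0.603 by edgeR, with 0 of 2 shSELP libraries below both shNC libraries. Without shNC 1 it was 0.21 and without shNC 2 it was -0.73 with an adjusted p of 0.0335, so 1 library decided its direction. In shSELP 1 a single cell gave 31.6% and 5 cells gave 56.1% of the UMIs, and with the UMIs of Ccl8 in the highest cell of each library left out, a choice made after the levels were seen, Ccl8 was 374, 203, 165 and 208 CPM, again overlapping.

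Ccr2 in macrophage-like cells was 77.6, 48.1, 37.7 and 41.1 CPM, with shNC 1 the highest and both shSELP libraries below both shNC libraries. The difference was -0.61 ± 0.23 with an adjusted p of 0.294 by edgeR, lower in 2 of 2 shSELP libraries. Without shNC 2 it was -0.93 with an adjusted p of 0.0132, and without shNC 1 it was -0.19 with an adjusted p of 0.789. The 8 monocyte markers, all detected, summed to 757, 1245, 1081 and 1502 CPM in these cells, with Plac8 the most abundant, and their part in the Ccr2 values was not tested.

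**Figure D4:**
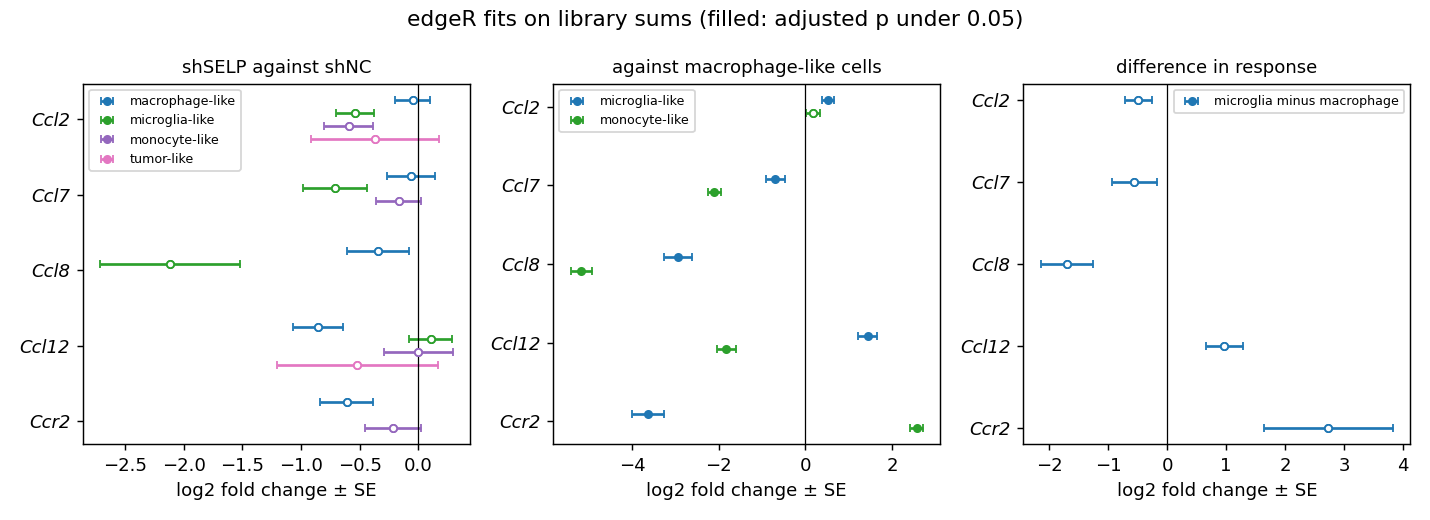
Log2 differences (edgeR, with SE) for the 5 genes in the mix. The first panel gives shSELP against shNC in macrophage-like, microglia-like, monocyte-like and tumor-like cells. The next gives microglia-like and monocyte-like against macrophage-like cells, and the last the difference in response of microglia-like and macrophage-like cells. Filled points passed an adjusted p of 0.05. In the first and last panels none passed, and Ccl12 in macrophage-like cells stood at -0.85 for shSELP against shNC.

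In microglia-like cells edgeR called 0 of 4 genes tested, where 0.366% of 7647 genes passed. At an unadjusted p under 0.05 there were 3, beside 12.7% of all genes tested. DESeq2 called 0, beside 3.96% of the 733 genes to which it gave an adjusted p, and it could not call a gene without one. Both shSELP libraries were below both shNC libraries for 2 of the 4 genes, Ccl2 and Ccl8, as for 19.1% of genes tested. Ccr2 was too low to be tested, with 0, 2, 20 and 1 UMIs.

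Ccl2 in microglia-like cells was 1557, 1283, 931 and 1056 CPM, and each shSELP value was under both of shNC. The difference was -0.54 ± 0.16 with an adjusted p of 0.1903 by edgeR, lower in 2 of 2 shSELP libraries, and without shSELP 2 it was -0.66 with an adjusted p of 0.0169. By cluster, the one led by Siglech and P2ry12 held 44, 42, 222 and 75 cells, with Ccl2 at 964, 819, 779 and 686 CPM. The one led by Cst7 and Timp2 held 47, 74, 109 and 49 cells, with Ccl2 at 1299, 1098, 1327 and 2065 CPM. There both shSELP libraries were above both shNC libraries, and how many of all genes had that order in a cluster was not counted. Its cells had on average 60.5% of the macrophage markers and 54.0% of the microglia markers, and it was not limited to microglia-like cells. These clusters were chosen after their values were seen, and their part in the Ccl2 difference was not tested. Ccl7 in microglia-like cells was 972, 447, 399 and 474 CPM, with shNC 1 apart and the groups overlapping. Its difference was -0.71 ± 0.27 with an adjusted p of 0.285 by edgeR and 1 of 2 shSELP libraries below both shNC libraries. Without shSELP 2 it was -0.87 with an adjusted p of 0.0197, and without shNC 1 it was -0.05.

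Ccl8 in microglia-like cells was 165, 24.6, 20.7 and 15.9 CPM, and shNC 1 stood far above the other libraries. Of its 89 UMIs in shNC 1, 87.6% came from 1 cell. The difference was -2.12 ± 0.60 with an adjusted p of 0.159 by edgeR, lower in 2 of 2 shSELP libraries. It was -0.41 without shNC 1, -3.16 with an adjusted p of 0.000481 without shNC 2 and -2.03 with an adjusted p of 0.00107 without shSELP 2. It also passed with libraries of the same number taken as a block, at -2.32 with an adjusted p of 0.00741, and with no filter on low counts, at -2.09. With the UMIs of Ccl8 in the highest cell of each library left out, a choice made after the levels were seen, Ccl8 was 20.4, 9.52, 10.1 and 8.34 CPM, and the groups overlapped.

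Ccl12 in microglia-like cells was 1844, 1546, 1544 and 2162 CPM. The lowest and the highest value were both from shSELP, and the groups overlapped. The difference was 0.11 ± 0.18 with an adjusted p of 0.856 by edgeR, and 1 of 2 shSELP libraries was above both shNC libraries. It was -0.19 without shSELP 2 and -0.02 without shNC 2.

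Whether the shSELP difference itself was unlike in microglia-like and macrophage-like cells was tested by the class by group term. By edgeR 0 of 5 genes passed, where 0.102% of 10837 genes did. At an unadjusted p under 0.05 there were 3, beside 7.83% of all genes tested, and DESeq2 was not run on this term. For Ccl12 the difference between the responses was 0.97 ± 0.31 with an adjusted p of 0.393 by edgeR, and both shSELP libraries were below both shNC libraries in macrophage-like cells alone. Without shSELP 1 it was 1.61 with an adjusted p of 2.71e-11. For Ccl8 it was -1.70 ± 0.44 with an adjusted p of 0.238 by edgeR, with both shSELP libraries below both shNC libraries in microglia-like cells alone. The Ccl8 value passed without shNC 2, without shSELP 1 and without shSELP 2, between -2.44 and -1.57, and was -0.63 without shNC 1.

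In monocyte-like cells edgeR called 0 of 4 genes tested, where 0.0154% of 6491 genes passed. At an unadjusted p under 0.05 there was 1, beside 4.87% of all genes tested, and DESeq2 called 0, beside 0.0319% of 9391 genes. Ccl2 was 1283, 848, 576 and 822 CPM, the only one of the 4 with both shSELP libraries below both shNC libraries, as for 18.3% of genes tested. Its difference was -0.59 ± 0.21 with an adjusted p of 0.890 by edgeR, lower in 2 of 2 shSELP libraries, and it passed without shSELP 2 at -0.86 with an adjusted p of 0.00140. It also passed with no filter on low counts at -0.59, with an adjusted p of 0.00660, and with libraries of the same number taken as a block at -0.56, with an adjusted p of 0.00413.

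Ccl7, Ccl12 and Ccr2 overlapped between groups in monocyte-like cells. Ccl7 was 223, 169, 151 and 189 CPM, with a difference of -0.17 ± 0.19. Ccl12 was 236, 108, 168 and 167 CPM, with a difference of 0.00 ± 0.29 that lay between -0.49 and 0.67 with 1 library left out and was -1.14 in cells whose leading class exceeded the next by 0.2 in its share of markers. Ccr2 was 358, 283, 343 and 208 CPM, lowest in shSELP 2, with a difference of -0.22 ± 0.24 that was 0.13 without shSELP 2. Ccl8, too low to be tested, was 3.98, 3.43, 4.99 and 14.0 CPM from 3, 4, 3 and 18 UMIs, with both shSELP libraries above both shNC libraries, and 72.2% of the UMIs of shSELP 2 came from 1 cell.

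Single cells weighed on other monocyte-like values too. In shSELP 2 a single cell gave 84.4% of the Ccl7 UMIs and 63.3% of those of Ccl12. With the UMIs of the gene in the highest cell of each library left out, a choice made after the levels were seen, Ccl7 was 168, 84.8, 78.2 and 29.6 CPM, no longer overlapping between groups, and Ccl12 was 171, 93.4, 135 and 61.5 CPM, still overlapping. Ccl2 was then 969, 773, 516 and 488 CPM, with both shSELP libraries below both shNC libraries as before. Neutrophil markers in monocyte-like cells summed to 174, 2164, 323 and 5542 CPM, highest in shSELP 2, led by S100a8 or S100a9, with Ly6g at 0 in each library and Retnlg at 0 in all but shSELP 2. Their part in the Ccr2 values was not tested.

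In T-like cells, a fit chosen after the levels were seen, Ccr2 was 60.7, 67.0, 74.8 and 96.3 CPM. Both shSELP libraries were above both shNC libraries, as for 21.1% of 10004 genes tested. The difference was 0.44 ± 0.14 with an adjusted p of 0.434 by edgeR, higher in 2 of 2 shSELP libraries, and 0.02% of genes tested passed. With 1 library left out it ranged from 0.26 to 0.56. In a T-cell cluster led by Cd8b1 and Cd8a, Ccr2 was 65.1, 96.4, 53.3 and 127 CPM. In one led by Ccl1 and Ifng it was 170, 68.5, 133 and 119 CPM, and the groups overlapped in both. In one led by Hist1h1b and Pclaf, with 106, 85, 41 and 74 cells, it was 14.7, 37.0, 78.1 and 52.8 CPM. There both shSELP libraries were above both shNC libraries. The part of these clusters in the Ccr2 difference was not tested. How many of all genes had both shSELP libraries above both shNC libraries within a cluster was not counted. In NK-like cells, likewise chosen after the levels were seen, Ccr2 was 121, 119.9, 172 and 243 CPM from 43, 100, 32 and 58 cells, again with no overlap, as for 20.4% of 3380 genes tested in that direction. The difference was 0.77 ± 0.30 with an adjusted p of 0.978 by edgeR, higher in 2 of 2 shSELP libraries, where 0.0296% passed, and with 1 library left out it ranged from 0.44 to 0.95.

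The Ccr2 response of T-like cells minus that of macrophage-like cells was 1.01 ± 0.25 with an adjusted p of 0.315 by edgeR, with 2 of 2 shSELP libraries above shNC in T-like and below it in macrophage-like cells. In that test, also chosen after the levels were seen, 0 of 5 genes passed, against 0.0349% of 11477 genes, and 2 had an unadjusted p under 0.05, beside 7.01% of all genes tested. The Ccr2 value was 1.46 with an adjusted p of 0.0147 without shNC 2, 1.07 with an adjusted p of 0.0404 without shSELP 1 and 0.54 without shNC 1. DESeq2 was not run on it.

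In tumor-like cells Ccl2 was 39.1, 27.2, 7.24 and 48.9 CPM, from 158, 81, 6 and 32 UMIs. shSELP 1 was the lowest and shSELP 2 the highest. A cluster led by Col9a2 and Matn2 held 232, 165, 44 and 32 cells. Ccl2 there was 40.7, 36.1, 7.86 and 8.18 CPM, from 253 UMIs in all. Both shSELP libraries were below both shNC libraries, on few UMIs in each shSELP library. How many of all genes had that order in this cluster was not counted. A cluster led by Csn3 and Cst6, with a median of 1684 UMIs a cell, held 59, 84, 55 and 144 cells. Ccl2 in the latter was 12.5, 51.5, 27.7 and 136 CPM, from 90 UMIs in all. The part of these clusters in the values of tumor-like cells was not tested. Of the 2 genes tested, edgeR and DESeq2 called 0 and 0 had an unadjusted p under 0.05, where 0.071% of 9854 genes passed by edgeR and 15.3% had an unadjusted p under 0.05, and 0.46% of 11511 genes passed by DESeq2. The differences were -0.37 ± 0.55 for Ccl2, which was 0.50 without shSELP 1, and -0.52 ± 0.69 for Ccl12, which was 0.04 without shSELP 1. The 10 macrophage markers summed to 1780, 1452, 1211 and 1947 CPM in tumor-like cells, led by Gpnmb or Fn1, with Ms4a7, Mrc1 and Adgre1 at 0 in both shSELP libraries, and their part in the Ccl2 values was not tested.

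In endothelial-like cells Ccl2 was 196, 48.1, 9.23 and 8.62 CPM, from 27, 11, 16 and 4 UMIs in 21, 32, 353 and 71 cells. Both shSELP libraries were below both shNC libraries, as for 22.8% of 5446 genes tested. Ccl2 was the only one of the 5 genes edgeR tested there, and it did not pass, at -3.58 ± 0.68 with an adjusted p of 0.127, lower in 2 of 2 shSELP libraries, where 0.11% of genes passed. DESeq2 called Ccl2 with an adjusted p of 0.00221, lower in 2 of 2 shSELP libraries at -3.71, and also called Ccl12, where it called 0.835% of 3954 genes. By edgeR, Ccl2 passed without shNC 2, without shSELP 1 or without shSELP 2, between -4.35 and -3.56, and not without shNC 1, at -2.41.

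Ccl12 in endothelial-like cells was 319, 13.1, 10.4 and 2.15 CPM, from 44, 3, 18 and 1 UMIs, and 86.4% of the UMIs of shNC 1 came from 1 cell. Macrophage markers in these cells summed to 2044, 7735, 3313 and 2073 CPM, most abundant in Apoe or Fn1, with Mrc1 at 0 in all libraries but shSELP 1. Mural markers summed to 1602, 879, 753 and 231 CPM, highest in shNC 1 and lowest in shSELP 2, led by Vtn in shNC 1 and Rgs5 in the others. Their part in the Ccl2 and Ccl12 values was not tested. Mural-like cells were not tested between groups, since shNC 1 held 5 of them, under the minimum of 10.

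In CD11b+ cells, with 1 library a group and no test, ratios of shSELP to shNC are given with an exact interval for counting error. In macrophage-like cells, 2036 in shNC and 2270 in shSELP, the median log2 ratio of 8134 genes was 0.11. Ccl12 was 673 CPM in shNC and 491 in shSELP, a ratio of 0.729 (95% interval 0.702 to 0.756). Ccl2 was 687 and 516 CPM, a ratio of 0.751 (0.724 to 0.779). Both were lower in shSELP, and Ccl12 had the same direction as in macrophage-like cells of the mix.

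Ccl7 was 466 CPM in shNC and 539 in shSELP, a ratio of 1.16 (1.11 to 1.20), and Ccl8 158 and 203 CPM, a ratio of 1.28 (1.20 to 1.37). Ccr2 was 51.6 and 69.5 CPM, a ratio of 1.35 (1.20 to 1.51). These 3 were higher in shSELP, and Ccr2 was thus opposite to both shSELP libraries of the mix. In these CD11b+ cells the monocyte markers summed to 587 CPM in shNC and 675 in shSELP, and cells with 3 or more microglia markers made up 15.9% and 9.65%; their part in the ratios was not tested. The intervals of Ccl7 and Ccl8 reached below 1 in cells thinned to 2000 UMIs, where the ratios were 1.06 (0.996 to 1.13) and 1.12 (0.995 to 1.25).

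In CD11b+ microglia-like cells, 122 in shNC and 85 in shSELP, Ccl2 was 691 CPM in shNC and 1140.1 in shSELP, a ratio of 1.65 (1.46 to 1.87). Ccl7 had a ratio of 1.86 (1.46 to 2.38) and Ccl12 of 1.17 (1.06 to 1.29), from 1286 to 1508 CPM. All 3 were higher in shSELP, for Ccl2 against the direction of the mix, and Ccl8 had a ratio of 1.02 with an interval from 0.602 to 1.70. The Ccl12 interval reached below 1 in cells with at least 4 markers, at 1.10 (0.995 to 1.22).

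In CD11b+ monocyte-like cells, 256 and 211, Ccr2 had a ratio of 1.34 (1.11 to 1.61), Ccl7 of 2.13 (1.62 to 2.80), Ccl2 of 0.871 (0.770 to 0.984) and Ccl12 of 0.695 (0.513 to 0.933). The Ccl12 ratio there turned to 1.68 when the leading class had to exceed the next by 0.2 in its share of markers, and its interval held 1 with at least 4 markers, at 0.915 (0.649 to 1.28), and in thinned cells. That of Ccl2 held 1 with at least 4 markers, with the lead of 0.2 and in thinned cells, at 0.892 (0.753 to 1.05) in the last, and that of Ccr2 in thinned cells, at 1.19 (0.922 to 1.54). Only the Ccl7 interval stayed on 1 side of 1 in all of these settings. It rests on 95 UMIs in shNC and 129 in shSELP and covers counting error only. The part of single cells in these ratios was not tested.

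The other genes of the pathway were taken from 5 lists with 43 genes: other CC ligands, CC receptors and scavengers, genes of monocyte entry and survival, receptor signalling, and inducers of these chemokines. Between shSELP and shNC edgeR called 0 of 37 tested in macrophage-like, 0 of 33 in microglia-like and 0 of 32 in monocyte-like cells. At an unadjusted p under 0.05 there were 6, 6 and 7, beside 14.3%, 12.7% and 4.87% of all genes tested, and DESeq2 called 1, 0 and 1, which were Il6 and Ccl3, beside 1.34%, 3.96% and 0.0319% of all genes. Their median log2 differences were 0.01, -0.02 and -0.04, beside -0.01, 0.00 and 0.00 over all genes tested. In tumor-like and endothelial-like cells edgeR called 0 of 22 and 0 of 20, with 6 and 2 at an unadjusted p under 0.05 (15.3% and 15% of all genes tested) and 0 by DESeq2, and medians of -0.09 and -0.18 beside -0.01 and 0.00. In T-like and NK-like cells edgeR and DESeq2 called 0 of 35 and 0 of 22, where DESeq2 called 0.15% and 0.0137% of all genes it tested, with 8 and 2 at an unadjusted p under 0.05, beside 9.47% and 4.29% of all genes tested.

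Among monocyte-like cells the 7 other CC ligands tested had a median of -0.91, and 6 of them had an unadjusted p under 0.05, as 4.87% of all genes tested in these cells did. Ccl4 was 2246, 2058, 1119.6 and 731 CPM, a difference of -1.20 with an adjusted p of 0.0976 by edgeR, lower in 2 of 2 shSELP libraries. Ccl3, a ligand of Ccr1, was 862, 764, 453 and 304 CPM, a difference of -1.09, and Ccl5 1472, 2332, 5849 and 2812 CPM, a difference of 1.21. Ccl3 and Ccl4 were below both shNC libraries in both shSELP libraries, as Ccl2 was in these cells, Ccl5 was above them, and none of the list passed by edgeR. In T-like cells the 7 tested of the same list had a median of -0.70, with 3 at an unadjusted p under 0.05, and in NK-like cells the 3 tested had a median of 0.06, with 1.

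In macrophage-like cells the 8 other CC ligands tested had a median of -0.36, with -0.55 for Ccl6 and -0.72 for Ccl9. Ccl5 was 2226, 1342, 3925 and 4660.2 CPM, a difference of 1.33 with an adjusted p of 0.101 by edgeR, higher in 2 of 2 shSELP libraries. Among the most abundant genes of the lists, the other differences were -0.17 for Ccl4, 0.28 for Ccl3, 0.23 for Ccrl2, -0.10 for Ccr1, 0.30 for Csf1r, 0.21 for Itgb2 and 0.08 for Itgb1. They were 0.08 for Gnai2, 0.07 for Gnb1, -0.18 for Arrb2, 0.25 for Il1b and -0.03 for Nfkbia. In microglia-like cells they lay between -0.57 for Il1b and 0.59 for Selplg, with -0.13 for Ccl4, 0.15 for Ccl3, 0.17 for Ccl5 and 0.44 for Cx3cr1, and none of these genes passed by edgeR.

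Between microglia-like and macrophage-like cells 23 of 36 pathway genes passed by edgeR, 11 higher and 12 lower in microglia-like cells, where 41.2% of all genes tested passed. Among those higher, Ccl3 differed by 2.12, Ccl4 by 2.26, Csf1 by 4.24, Cx3cr1 by 2.91, Selplg by 2.05, Csf1r by 1.47 and Tnf by 1.66. Among those lower, Ccr1 differed by -3.95, Itga4, which was a marker of the macrophage gate, by -3.38, Il1b by -2.82, Ccl5 by -1.44, Ccl6 by -1.40 and Ccrl2 by -0.73. Others that passed were Ccl22, which was a marker of the dendritic gate, Vcam1, Icam1 and Pik3cg, higher, and Ccl24, Itgal, Itgb2, Arrb2 and Il6, lower.

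Between monocyte-like and macrophage-like cells 22 of 36 passed, 14 higher and 8 lower in monocyte-like cells, where 33.3% of all genes tested passed. Among those higher were Ccl17 by 2.56, Ccl22 by 1.67, Ccl9 by 1.59, Ccl6 by 0.73, Ccr1 by 0.88, Selplg by 0.98, Il6 by 1.15 and Irf1 by 1.06, with Itga4, Tnf, Rela and Nfkbia. Of these, Ccl22 was a marker of the dendritic gate and Itga4 of the macrophage gate, so their values are not independent of the gate. Lower were Vcam1 by -3.08, Cx3cr1 by -1.87, Nup85 by -0.93, Arrb2 by -0.67, Csf1r by -0.58 and Ccrl2 by -0.50, with Itgb1 and Pik3cg. The 96 monocyte-like cells in the cluster of dendritic-cell genes, whose leading genes included Ccl17, Cd209a and Xcr1, are part of these values, and their share in those of Ccl17 and Ccl22 was not tested. Ccr1 had the direction of Ccr2, near which it lies on chromosome 9.

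Over 41 sums of cells by class and library, from 13 classes, the genes most like each member were sought by Pearson's r among 11742 genes. For Ccl12 these were Slc7a8 (r = 0.940), C3ar1 (0.936) and Gpr84 (0.928), and those for Ccl7 included Apoe (0.880) and Lrp1 (0.849). For Ccl2 they were Lrp1 (0.848), Ctsb (0.838) and Lamp2 (0.836), and for Ccl8 Itga9 (0.810), Ccl7 (0.780) and Pdpn (0.773). For Ccr2 they were Itgb7 (0.883), Runx3 (0.871) and Prdx6 (0.848). Among the members, Ccl2 and Ccl7 were most alike (r = 0.823), and Ccr2 had r between -0.0235 and 0.0810 with the 4 ligands. Sums of 1 library share its depth and sums of 1 class its cell type, so these coefficients describe the pattern and carry no p.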

How the data were processed

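The authors aligned reads of 10x Chromium libraries to mm10 with Cell Ranger 1.3, and deposited UMI counts per gene and cell, which were used as whole numbers without scaling; gene positions are from GENCODE M21. The labels list 48 sequencing entries, 8 per library, and 0 columns of cells matched no library. They name version 2 of the reagent kit, day 16 for the mix and day 21 for CD11b+ cells, while the methods name version 3 and day 17 for both, and the methods are also the source for the age, sex and pooling of the mice. In 7 entries of CD11b+ shSELP a line of the description speaks of the negative control; groups follow their titles, source names and genotypes.

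Cells with fewer than 500 genes or over 10% mitochondrial UMIs were left out, 446 of 9172 in the mix and 189 of 5724 among CD11b+ cells. Cells were gated on fixed markers of 14 classes, with ties unassigned. UMIs were summed per library and class where each library had at least 10 cells. Sums were tested with edgeR 4.0.16 in R 4.3.3 (filterByExpr, TMM, quasi-likelihood F test, Benjamini-Hochberg over all genes tested, threshold 0.05), with library as a block for contrasts between classes. Intervals of CD11b+ ratios are exact binomial. For likeness, sums of at least 20 cells and genes of at least 20 CPM in 1 sum were used, on log2 of CPM plus 10.

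Alternatives were DESeq2 1.42.0, its size factors in edgeR, no filter, the replicate block, each library left out, cells thinned to 2000 UMIs, at least 4 markers, a lead of 0.2, clusters from Seurat 5.3.0 (2000 variable genes without the 5 members, 12 components, resolution 0.8) and the 5% of cells with the highest Scrublet scores (scanpy 1.11.5) left out. The tests were also run on simulated data. The other values were made in Python 3.11.15 (matplotlib 3.10.9, pandas 2.3.3, scipy 1.17.1, numpy 2.4.6).

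The members and lists were chosen with earlier results of these data known. Named genes are the 5 members, every gene of the pathway lists that passed in a class and otherwise those of highest mean level, and the 3 genes most like each member; others named from the lists and the clusters were chosen after their values were seen. Some genes that these rules would name, and 1 cluster, are not reported here. H19, Col9a2 and Matn2 were made tumor markers from earlier results of these data.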

Additional observations from a re-analysis of the deposited data

Results flagged for a closer look

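In 29 sets of 4 libraries, each a gene in a class of the mix, the gap between the most distant library and the next was divided by the range of all 4. About 1 in 20 sets of independent, normally distributed values would be marked, and 5 were marked here. CPM values need not follow that distribution and the sets share libraries, so that rate need not hold for them. Ccl8 in macrophage-like cells had shNC 1 apart at 404 CPM, with a gap of 0.883 of the range. Ccl8 in microglia-like cells also had shNC 1 apart, at 165 CPM with 0.941 of the range. Ccl7 in microglia-like cells had shNC 1 apart at 972 CPM, with 0.870 of the range. Ccl12 in endothelial-like cells had shNC 1 apart at 319 CPM, with 0.965 of the range, from 44 UMIs. Ccl8 in monocyte-like cells had shSELP 2 apart at 14.0 CPM, with 0.852 of the range, from 18 UMIs, of which 72.2% came from 1 cell. In 4 of the 5 sets the library apart was shNC 1. The 29 sets did not hold every gene in every class. Ccl8 in mural-like cells, with 11 UMIs in shNC 2 and 0 in each other library, was not among those marked.

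A pair of ratios in CD11b+ cells ran opposite to both shSELP libraries of the mix. Ccr2 in macrophage-like cells had a ratio of shSELP to shNC of 1.35 in CD11b+ cells and was lower in both shSELP libraries of the mix. Ccl2 in microglia-like cells had a ratio of 1.65 in CD11b+ cells and was lower in both shSELP libraries of the mix. The difference between the experiments was not tested, since the CD11b+ cells have 1 library a group, and day, sorting and experiment cannot be told apart.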

How the results depend on the processing

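The 4 main limits were few libraries, few cells in some classes, cells near the limit between classes, and depth. With 2 libraries a group, 1 library decided several values. When a library was left out, 1 group held a single library, which was then assumed to vary like the others. In NK-like, endothelial-like, mural-like, fibroblast-like, astrocyte-like, neutrophil-like and oligodendrocyte-like cells, some libraries held few cells, and a level under 3 UMIs could not be told from 0. Intervals cover counting error only. Where a value below changed with a setting, the cause was not tested, except that leaving out the filter on low counts changes the number of genes tested and thinning leaves out cells and UMIs by construction.

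For the 5 genes, 212 values kept their direction and their side of an adjusted p of 0.05 under other settings, 15 passed it newly, 2 no longer passed and 12 turned direction; with 1 library left out the same counts were 83, 20, 3 and 16. Of the CD11b+ ratios, 43 stayed within their interval, 13 left it and 1 whose interval did not hold 1 turned direction. Those whose interval held 1 were not counted as turned. Counts of genes called stayed within 1.5 times under 29 other settings and moved further under 39, and with 1 library left out stayed in 10 cases and moved further in 22.

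Macrophage-like cells, shSELP against shNC. Ccl2 was 0.023 and Ccl7 0.10 in cells thinned to 2000 UMIs, against -0.05 and -0.06 in all cells. Leaving out each library in turn, Ccl2 ranged from -0.27 to 0.15 and Ccl7 from -0.40 to 0.21, turning without shNC 2 and without shSELP 2. Ccl8 ranged from -0.73 to 0.21, turning without shNC 1 and passing without shNC 2. Ccl12 ranged from -1.25 to -0.53, passing without shSELP 1, and Ccr2 from -0.93 to -0.19, passing without shNC 2. Ccl12 was -0.86 and passed with no filter on low counts (adjusted p = 0.00288 by edgeR, lower in 2 of 2 shSELP libraries).

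Clusters gave 2 values for Ccl12 in macrophages. With clusters named by their share of markers it was -0.80 with an adjusted p of 0.282 by edgeR, lower in 2 of 2 shSELP libraries, and 0 genes were called, with 1271 at an unadjusted p under 0.05. After these values had been seen, a check of the cluster names was applied that left out 270, 366, 294 and 412 of the 951, 831, 613 and 909 cells. Then Ccl12 was -1.16 with an adjusted p of 0.0174 by edgeR, lower in 2 of 2 shSELP libraries, and 168 genes were called. In macrophage-like cells with at most 2 microglia markers, also chosen after the data were seen, it was -1.23 with an adjusted p of 0.0341 by edgeR, lower in 2 of 2 shSELP libraries. Thus 2 of 13 alternatives of the first kind and 2 of 2 chosen after seeing the data put Ccl12 past the threshold, and adjusted p-values over all of them ran from 0.00288 to 0.402.

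The number of genes called in macrophage-like cells was 11. It was 143 by DESeq2, 373 with no filter on low counts, 151 with the replicate block, 6 in thinned cells, 17 with at least 4 markers, 75 with a lead of 0.2, 32 with high doublet scores left out and 22 with at most 2 microglia markers, and ranged from 25 to 167 with 1 library left out.

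Microglia-like cells, shSELP against shNC. With no filter on low counts Ccl7 was -0.68 and Ccl8 -2.09, and both passed. With the replicate block Ccl8 was -2.32 and passed. Over the fits without 1 library, Ccl2 ranged from -0.68 to -0.38 and Ccl7 from -1.19 to -0.051, each passing without shSELP 2. Ccl8 ranged from -3.16 to -0.41, passing without shNC 2 and without shSELP 2, and Ccl12 from -0.19 to 0.36, turning without shNC 2 and without shSELP 2. The number of genes called was 28, and it was 223 with no filter, 87 with the replicate block, 14 in thinned cells, 11 with a lead of 0.2, 4 with clusters and 4 with clusters after the name check; with 1 library left out it ranged from 8 to 169.

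Monocyte-like cells, shSELP against shNC. Ccl2 passed at -0.59 with no filter, at -0.56 with the replicate block and with clusters at -0.89 (adjusted p = 0.0376 by edgeR, lower in 2 of 2 shSELP libraries). With clusters Ccl7 was -1.46 and passed. The 2 clusters taken as monocytes were led by Retnlg and S100a9 and by Plet1 and Ccl17 and had more markers of other classes than of monocytes among their 10 leading genes, so these are not values of monocytes alone, and neither cluster was left after the name check. Ccl12 turned to -0.024 by DESeq2, -1.14 with a lead of 0.2 and -0.23 with clusters. With 1 library left out, Ccl2 ranged from -0.87 to -0.25, passing without shSELP 2. Ccl7 ranged from -0.37 to 0.057, turning without shNC 1, Ccl12 from -0.49 to 0.67, turning without shNC 2 and without shSELP 1, and Ccr2 from -0.63 to 0.13, turning without shSELP 2. The number of genes called was 1, and it was 3 by DESeq2, 81 with no filter, 89 with the replicate block, 6 in thinned cells, 4 with at least 4 markers, 25 with clusters and 19 without the cells of the clusters led by dendritic-cell and immunoglobulin genes, the last chosen after the data were seen; with 1 library left out it ranged from 7 to 83.

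Tumor-like cells, shSELP against shNC. Ccl2 turned to 0.83 in thinned cells, to 0.43 with clusters and to 0.43 after the name check, and to 0.011 with high doublet scores left out. With 1 library left out Ccl2 ranged from -2.20 to 0.50 and Ccl12 from -1.24 to 0.036, each turning without shSELP 1. The number of genes called was 7, and it was 53 by DESeq2, 588 with no filter, 227 with the replicate block, 22 in thinned cells and 4 with a lead of 0.2, and ranged from 42 to 561 with 1 library left out.

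Endothelial-like cells, shSELP against shNC. Ccl2 passed at -3.71 by DESeq2, -3.47 with no filter and -3.53 with a lead of 0.2, and ranged from -4.35 to -2.41 with 1 library left out, passing without shNC 2, without shSELP 1 and without shSELP 2. The number of genes called was 6, and it was 33 by DESeq2, 380 with no filter, 3 with the replicate block, 26 in thinned cells, 2 with at least 4 markers, 69 with a lead of 0.2 and 2 with high doublet scores left out; with 1 library left out it ranged from 116 to 262.

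Microglia-like against macrophage-like cells. Ccl2 no longer passed in thinned cells at 0.22, and turned to -0.24 with clusters and to -0.051 after the name check. Ccl7 no longer passed at -0.28 against macrophage-like cells with at most 2 microglia markers. With 1 library left out Ccl2 ranged from 0.37 to 0.69, not passing without shNC 1, and Ccl7 from -1.03 to -0.46, not passing without shNC 2 or without shSELP 1. The 4122 genes called became 2189 in thinned cells. Monocyte-like against macrophage-like cells, Ccl2 passed at 0.51 with at least 4 markers and at 0.69 without the cells of the clusters named above, and was -1.33 with the 2 clusters taken as monocytes, which were led by genes of other classes. With 1 library left out it ranged from -0.047 to 0.41, turning without shNC 1 and passing without shSELP 1. The 3161 genes called became 1408 in thinned cells.

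T-like and NK-like cells, fits chosen after the levels were seen. Ccr2 in T-like cells ranged from 0.26 to 0.56 with 1 library left out and was 0.28 in thinned cells. In NK-like cells it ranged from 0.44 to 0.95 with 1 library left out, and was 0.43 with clusters and 0.97 in thinned cells. None of these passed. The response of T-like minus that of macrophage-like cells ranged from 0.54 to 1.46 for Ccr2, passing without shNC 2 and without shSELP 1.

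Difference in response between microglia-like and macrophage-like cells. With 1 library left out, Ccl2 ranged from -0.81 to -0.15, passing without shSELP 2, and Ccl7 from -1.28 to 0.18, turning without shNC 1 and passing without shNC 2 and without shSELP 2. Ccl8 ranged from -2.44 to -0.63, passing in all cases but without shNC 1, and Ccl12 from 0.34 to 1.61, passing without shSELP 1. Ccr2 ranged from -0.028 to 8.84, turning without shSELP 1 and passing without shSELP 2, and rested on 23 UMIs in microglia-like cells. The number of genes called was 11, and it was 7 in thinned cells and 23 with a lead of 0.2, and ranged from 14 to 138 with 1 library left out.

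CD11b+ cells. In macrophage-like cells, Ccl2 was 0.799 with a lead of 0.2, 0.682 in thinned cells and 0.699 with TMM scaling; Ccl7 was 1.06 in thinned cells and 1.08 with TMM scaling; Ccl8 was 1.47 with a lead of 0.2, 1.12 in thinned cells, 1.45 with at most 2 microglia markers and 1.19 with TMM scaling; and Ccl12 was 0.686 in thinned cells and 0.679 with TMM scaling. In microglia-like cells Ccl8, at 1.02 with an interval that held 1, was 0 with a lead of 0.2, from 0 UMIs in shSELP, 0.711 in thinned cells and 0.976 with TMM scaling, all on the other side of 1, and Ccl12 was 1.34 in thinned cells. In monocyte-like cells Ccl12 turned to 1.68 with a lead of 0.2.

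The labels number the libraries of each group, so the pairing by number was checked. Over genes, the correlation of the log2 ratios of the 2 pairs was -0.0571 in macrophage-like, 0.0738 in microglia-like, 0.333 in monocyte-like, -0.0292 in tumor-like and -0.0540 in endothelial-like cells. With the replicate block, Ccl12 in macrophage-like cells was -0.89 with an adjusted p of 0.0585 by edgeR, lower in 2 of 2 shSELP libraries. Some alternatives gave no value, where a gene did not pass the filter or a class had fewer than 10 cells in a library.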
